A study of Homo sapiens with 24 samples.

Results

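CD44 and 9 other genes of hyaluronan, the large sugar polymer of the matrix around cells, were read out of an RNA sequencing count table of human bladder cancer lines. The 10 genes were taken by symbol from the 35993 genes of the table, and all 10 were found: the receptors CD44 and HMMR, the synthases HAS2 and HAS3, the degrading enzymes HYAL1, HYAL2, HYAL3, CEMIP and CEMIP2, and the binding protein TNFAIP6. The rule that picks the genes names them and uses no level. The genes, and the gene lists used below, were chosen with earlier results of these data known. The table holds 24 libraries in 8 groups of 3 biological replicates. Of the J82 bladder cancer line there are the parental cells, called the control in the labels for both CD44 and its variant CD44v6, and derived lines named CD44 Low, CD44 High and CD44v6. The RT-112 bladder cancer line contributes the same 4 groups. The derived lines are described as having low CD44, high CD44 or high CD44v6 receptor, and the labels give no agent, allele or procedure that made them. Each derived group is 1 line, so the spread between its replicates is not the spread between separately derived lines.

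Hyaluronan is made at the cell membrane by synthases from UDP-glucuronic acid and UDP-N-acetylglucosamine. It is cut by hyaluronidases and by proteins of the CEMIP family, and cells bind it mainly through the surface receptor CD44. Bladder epithelium and bladder tumours make and turn over hyaluronan, and CD44 is a common surface marker in cultures of urothelial cancer cells. CD44v6 is a splice form of CD44 that carries variant exon v6, which counts per gene do not separate from the other forms.

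The libraries held 16752825 to 24419670 counts. Levels are given as CPM, a gene's counts with every library scaled to the same total, and tests are edgeR quasi-likelihood tests with p-values adjusted over all genes tested, called at an adjusted p under 0.05. Fold changes are on the log2 scale. Epithelial markers were checked: KRT7, KRT8, KRT18 and KRT19 were present in both lines, while EPCAM averaged 1.11 to 2.30 CPM in the J82 groups and 286 to 409 CPM in the RT-112 groups, and KRT5 was at 0 in all J82 libraries. Of the 11 markers of other cell types, CD3E, CDH5 and HBB were at 0 in every J82 library, and PTPRC, CD14 and HBB in every RT-112 library. The summed level of the 11 ran from 8.94 to 17.9 CPM in RT-112. In J82 it was 152 to 176 CPM in parental cells, 80.9 to 124 in CD44 Low, 141 to 217 in CD44 High and 105 to 185 in CD44v6, and was almost all CD68, which rose from CD44 Low to CD44 High by 0.84 (adjusted p = 0.0262). From J82 Low to High, 6 epithelial markers were tested, where 15.7% of all genes were called: KRT7 rose (1.44) and CDH1 fell (-3.47). In RT-112, 8 were tested, where 16% of all genes were called. There KRT5 (0.91) and EPCAM rose, while KRT7, KRT8 and KRT19 (-0.64) fell. KRT7 thus went opposite ways, with a line difference of 1.71 (adjusted p = 1.51e-06). In CD44 Low against parental cells, CDH1 rose and KRT7 and KRT19 fell in J82 (5.34% of all genes called). For RT-112, KRT19 rose and KRT5 fell in that comparison (3.2%). CDH1 was low in J82, averaging 1.44 log2 CPM over its 12 libraries. In parental cells, J82 against RT-112 was -6.97 for CDH1 and -7.41 for GATA3. The part of these markers in the results was not tested. In bulk RNA, fewer cells that express a gene and less RNA per cell cannot be told apart.

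CD44 gives the groups their names and is described before the others. The derived lines are described by the level of this receptor, so its calls are not independent of the grouping. In J82 the CD44 level of replicates 1, 2 and 3 was 489, 397 and 448 CPM in the parental cells, 309, 274 and 254 CPM in CD44 Low, 709, 764 and 708 CPM in CD44 High, and 715, 1072 and 612 CPM in CD44v6. The Low libraries lay below all parental libraries and the High and CD44v6 libraries above all of them, while High and CD44v6 overlapped. In RT-112 the CD44 level was 310, 347 and 294 CPM in the parental cells, 120, 151 and 152 CPM in CD44 Low, 418, 351 and 491 CPM in CD44 High, and 516, 449 and 378 CPM in CD44v6. The order of the groups was the same as in J82, with the lowest High library (351 CPM) just above the highest parental library (347 CPM).

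Between CD44 High and CD44 Low cells, CD44 differed by a log2 fold change of 1.39, higher in High, in J82 (SE 0.17, adjusted p = 0.00012) and of 1.61 in RT-112 (SE 0.15, adjusted p = 7.39e-05). CD44v6 against CD44 Low gave 1.52 in J82 and 1.66 in RT-112. CD44 Low was below parental by -1.20 in RT-112 (SE 0.15, adjusted p = 0.00123) and by -0.68 in J82 (SE 0.17, adjusted p = 0.0329). The increases over parental cells were called in J82, at 0.71 for CD44 High (adjusted p = 0.0355) and 0.85 for CD44v6 (adjusted p = 0.0214). In RT-112 they were 0.41 and 0.46 and missed the threshold (adjusted p = 0.272 and 0.163). The J82 calls of CD44 against parental cells rested on all libraries being present: the Low and High calls were each lost when any 1 of their 6 libraries was left out (adjusted p of 0.058 to 0.131 and 0.0783 to 0.177), and the CD44v6 call when any 1 parental library was left out (up to 0.121). The High against Low and CD44v6 against Low calls held in every such fit. The intervals of CD44v6 against CD44 High, on the log2 scale with 95% coverage, were -0.19 to 0.46 in J82 and -0.24 to 0.33 in RT-112. None of the 6 differences between the lines in the CD44 response was called.

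**Figure D1:**
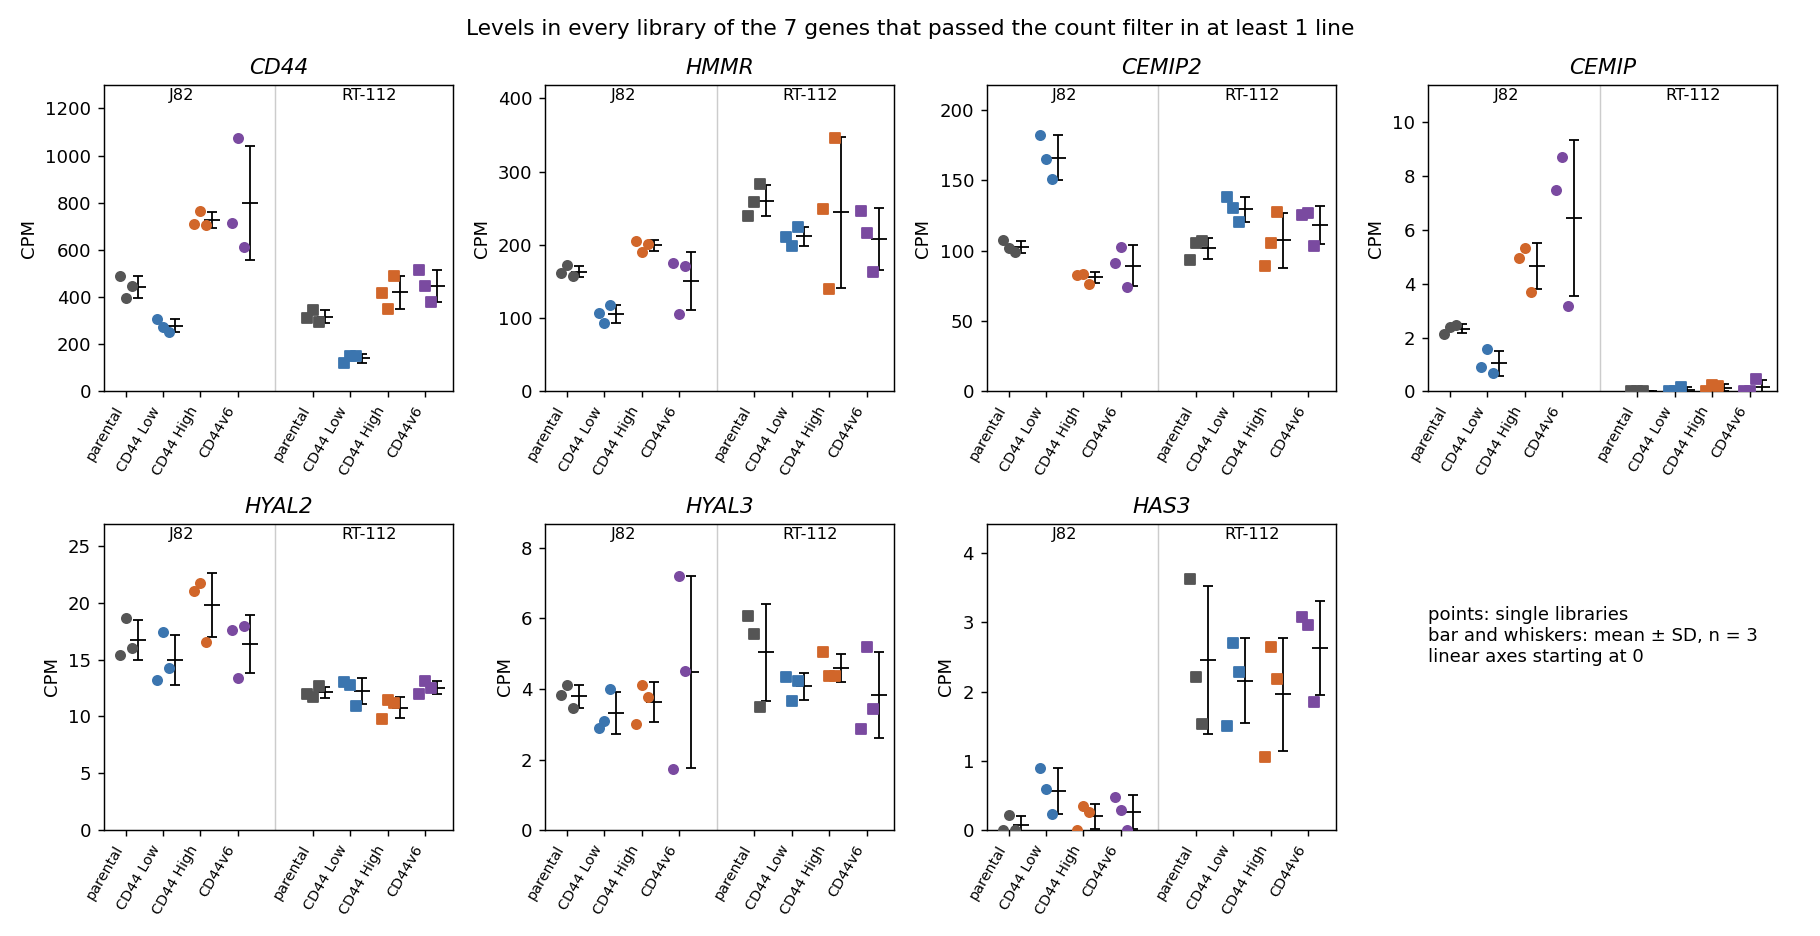
Level (CPM, linear axis from 0) of the 7 genes that passed the count filter in at least 1 line, for each library of the 4 J82 groups (circles) and the 4 RT-112 groups (squares), with the group mean and SD (n = 3). CD44 is lowest in CD44 Low in both lines, CEMIP2 is highest in J82 CD44 Low, and CEMIP is near 0 throughout RT-112.

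HMMR, also known as RHAMM, is a hyaluronan receptor that also sits on the mitotic spindle. Its level in J82 was 162, 172 and 157 CPM in parental cells, 108, 93.3 and 118 CPM in CD44 Low, 206, 191 and 201 CPM in CD44 High, and 176, 105 and 172 CPM in CD44v6. The Low and High libraries did not overlap with each other or with the parental libraries. The CD44v6 group held 2 libraries near the parental level and 1, replicate 2, among the Low libraries. This same library had the highest CD44 level of all. In RT-112, HMMR was at 240, 259 and 283 CPM in parental cells, 211, 199 and 225 CPM in CD44 Low, 249, 140 and 346 CPM in CD44 High, and 246, 216 and 163 CPM in CD44v6. The RT-112 High libraries spread over more than the whole range of the other RT-112 groups.

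Against J82 CD44 Low, HMMR was called higher in CD44 High, by 0.91 (SE 0.16, adjusted p = 0.00201), and this call held in all 6 fits that left out 1 library. It was called lower in J82 CD44 Low than in parental cells by -0.63 (SE 0.16, adjusted p = 0.04), a call lost in 5 of 6 such fits (adjusted p up to 0.151, the exception being the fit without Low replicate 3). The J82 CD44v6 against Low difference of 0.52 missed the threshold (adjusted p = 0.0637) and was called without CD44v6 replicate 2, at 0.73 (adjusted p = 0.000564). No HMMR difference was called in RT-112. The High against Low value there was 0.25 (SE 0.25, adjusted p = 0.528), and without High replicate 2 it was 0.53 (adjusted p = 0.0425). The difference between the lines in High against Low was 0.70 (SE 0.31, adjusted p = 0.167), and 1.04 without RT-112 High replicate 3 (adjusted p = 0.0194).

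The HMMR promoter is printed because HMMR is read here beside other mitotic genes. It holds short letter runs known from promoters of cell cycle genes. The 250 bases upstream of the HMMR start are from RefSeq, build GRCh38.p14, chr5:163460382-163460631, plus strand, 5′ to 3′. Capitals mark matches on either strand to CCAAT, to TTTGAA, to GGGCGG (the GC box) and to CATTCC (the TEAD motif).
HMMR: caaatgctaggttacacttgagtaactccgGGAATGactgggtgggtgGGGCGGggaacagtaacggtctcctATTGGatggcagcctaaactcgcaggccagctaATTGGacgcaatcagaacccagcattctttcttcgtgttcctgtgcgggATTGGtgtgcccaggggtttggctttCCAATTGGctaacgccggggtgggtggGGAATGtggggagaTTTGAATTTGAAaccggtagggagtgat
The window holds CCAAT 5 times, counted on both strands with 1 overlapping pair, and 0.319% of the 35116 promoters searched hold it at least as often. TTTGAA, the core of the cell cycle homology region, occurs 2 times side by side, at -28 to -23 and -22 to -17 from the start, and 1.72% of promoters hold at least as many. CATTCC occurs 2 times (0.94% of promoters hold as many) and GGGCGG occurs 1 time (42.6% of promoters hold it). These are letter matches and no binding was measured.

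The 12 spindle and mitosis genes listed as partners of HMMR were all tested in both lines. In CD44 High against CD44 Low, 7 rose and none fell in J82, where 15.7% of all genes were called, and their median log2 change was 0.44 beside -0.02 for all genes. In RT-112, 5 rose and none fell, where 16% of all genes were called, with a median of 0.53 beside 0.02 for all genes. AURKA, the kinase that matures spindle poles, had increases of 0.75 (J82) and 0.87 (RT-112). BUB1, a spindle checkpoint kinase, rose by 0.60 and 0.52, NUSAP1, which bundles spindle microtubules, by 0.67 and 0.54, and TPX2, a spindle assembly factor that activates AURKA, by 0.35 and 0.70. TOP2A, the DNA topoisomerase of dividing cells, rose by 0.97 in J82. PLK1, a mitotic kinase, rose by 0.82 in RT-112. In CD44 Low against parental cells, 5 of 12 fell in J82 (5.34% of all genes called, median -0.40 beside 0.00 for all genes) and 4 of 12 in RT-112 (3.2%, median -0.38 beside -0.01). NUSAP1 was called in both lines, at -0.56 and -0.38. In CD44v6 against CD44 Low, 3 of 12 rose in J82 (9.58% of all genes called) and 6 of 12 in RT-112 (16%). HMMR itself was not called in RT-112, at 0.25 in High against Low, -0.33 in Low against parental and -0.03 in CD44v6 against Low (adjusted p = 0.528, 0.506 and 0.95).

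Of all 11393 genes compared in both lines, those whose log2 levels followed HMMR most closely over the 12 libraries of each line were CDC27, KIF11 and TOP2A. Likeness is the smaller of the J82 and RT-112 correlations and was 0.934, 0.924 and 0.906. CDC27 is a subunit of the anaphase-promoting complex and KIF11 a spindle motor. For comparison, HMMR and CD44 had a correlation of 0.51 in J82 and 0.22 in RT-112. All libraries of a line share its groups, so these values describe the libraries and carry no test.

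**Figure D2:**
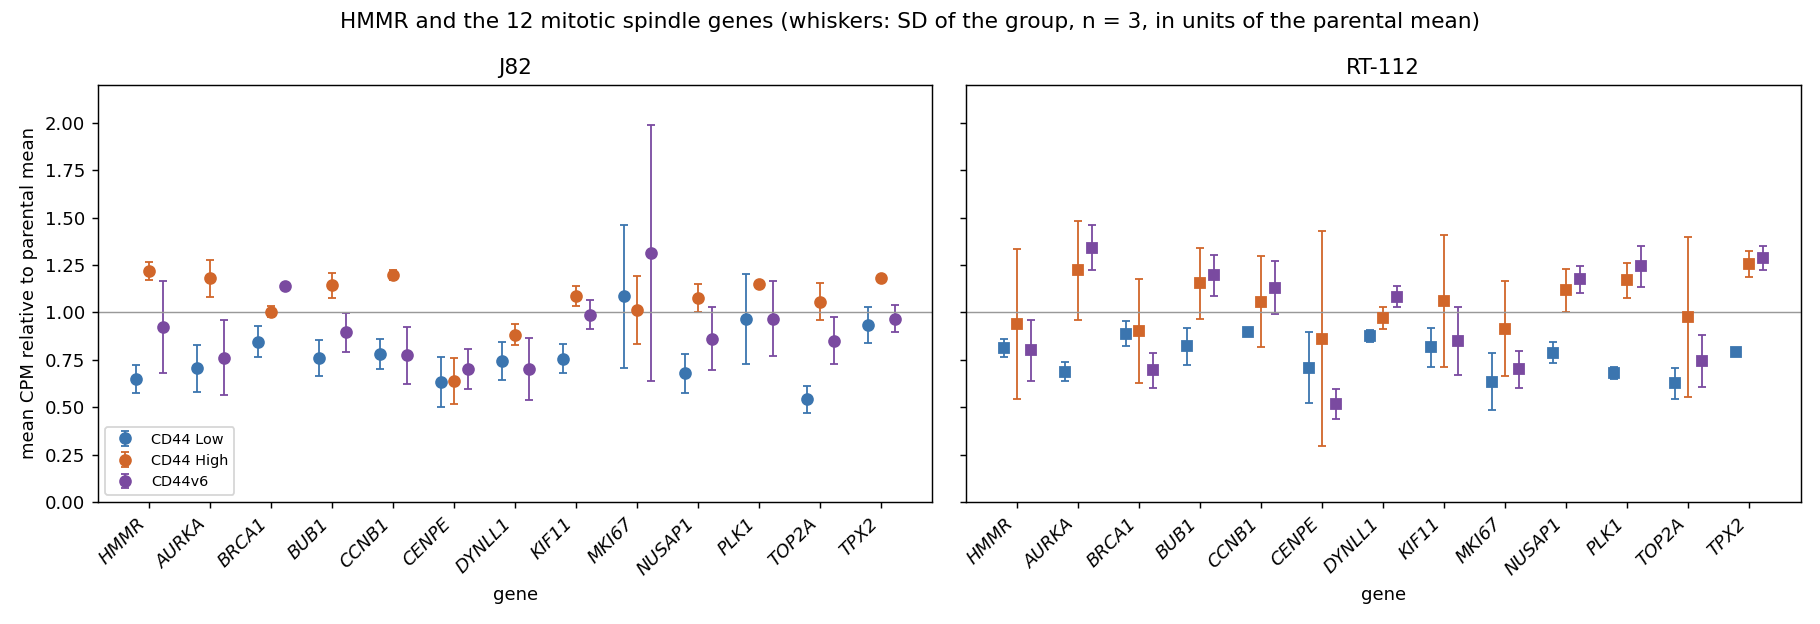
Mean CPM of HMMR and the 12 mitotic spindle genes in each derived line relative to the parental mean of the same line (linear axis, 1 is the parental level); whiskers are the SD of the group (n = 3) in the same units, and blue, orange and purple are CD44 Low, CD44 High and CD44v6. HMMR in J82 Low lies below parental and J82 High above it, and the RT-112 High whiskers for HMMR, CENPE, KIF11 and TOP2A are wide.

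CEMIP, a secreted protein that binds and depolymerises hyaluronan, was measured at low levels in J82. Replicates 1, 2 and 3 gave 2.14, 2.41 and 2.46 CPM in parental cells, 0.892, 1.57 and 0.687 CPM in CD44 Low, 4.95, 5.34 and 3.71 CPM in CD44 High, and 7.47, 8.69 and 3.18 CPM in CD44v6, from 12 to 154 counts per library. All Low libraries lay below all parental libraries, and all High and CD44v6 libraries lay above them. In RT-112 CEMIP was at 0 in 8 of 12 libraries and reached at most 8 counts, with 19 counts over all 12 libraries beside 849 over the J82 libraries.

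In J82, CEMIP rose from CD44 Low to CD44 High by 2.15 (SE 0.39, adjusted p = 0.00229), a 4.44-fold difference, and from CD44 Low to CD44v6 by 2.61 (SE 0.39, adjusted p = 0.000822), a 6.12-fold difference. Both calls held without any 1 of the libraries compared. Against parental cells, no CEMIP difference was called: CD44 Low was at -1.15 (adjusted p = 0.112), CD44 High at 1.0 (adjusted p = 0.173) and CD44v6 at 1.46 (adjusted p = 0.0501, and 0.0128 without CD44v6 replicate 3). In parental cells of the lines, J82 CEMIP was at least 15.7-fold higher than the limit that 3 counts per library set in RT-112, where all 3 parental libraries were at 0 (mean limit 0.149 CPM). CEMIP shares 224 exonic bases, 2.94% of its exons, with MESD on the opposite strand, and whether counting used strand is not given in the sources used here. MESD ran from 60.2 to 96.1 CPM in J82 and from 116 to 141 CPM in RT-112, the line in which CEMIP was near 0.

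CEMIP2, also called TMEM2, is a membrane protein of the same family, described as a cell surface hyaluronidase. Its level in J82 was 107, 102 and 99 CPM in parental cells, 182, 165 and 151 CPM in CD44 Low, 83.1, 83.6 and 76.6 CPM in CD44 High, and 91.3, 103 and 74.2 CPM in CD44v6. The Low libraries lay above every other J82 library, opposite to CD44 and CEMIP. In RT-112 it was 93.3, 105 and 107 CPM in parental cells, 138, 130 and 120 CPM in CD44 Low, 89.0, 105 and 127 CPM in CD44 High, and 126, 127 and 103 CPM in CD44v6. The RT-112 Low libraries lay above the parental libraries and overlapped with those of High and CD44v6.

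Relative to J82 CD44 Low, CEMIP2 was lower in CD44 High by -1.03 (SE 0.11, adjusted p = 6.03e-05) and lower in CD44v6 by -0.89 (SE 0.11, adjusted p = 0.000268). It was higher in J82 CD44 Low than in parental cells by 0.69 (SE 0.11, adjusted p = 0.00375). In RT-112 the same contrasts gave -0.24 (adjusted p = 0.203), -0.14 (adjusted p = 0.481) and 0.31 (adjusted p = 0.18). Without RT-112 CD44 High replicate 3, High against Low was -0.39 there and was called (adjusted p = 0.0237). The test of the difference between lines gave -0.76 for High against Low (SE 0.18, adjusted p = 0.00721) and -0.76 for CD44v6 against Low (SE 0.18, adjusted p = 0.00987). Both line differences were called in all 12 fits that left out 1 library each. Parental cells of the lines differed by 0.01 (SE 0.12, adjusted p = 0.941).

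CD44, CEMIP and CEMIP2 were the genes of the 10 called in J82 CD44 Low against both CD44 High and CD44v6, and their promoters are shown for comparison. Each is the 250 bases upstream of the RefSeq start (GRCh38.p14), 5′ to 3′ on the gene's strand: CD44 at chr11:35138921-35139170, plus strand, CEMIP at chr15:80779120-80779369, plus strand, and CEMIP2 at chr9:71768514-71768763, minus strand. Capitals mark GGGCGG, the GC box, on either strand and, in CEMIP, TATAAA.
CD44: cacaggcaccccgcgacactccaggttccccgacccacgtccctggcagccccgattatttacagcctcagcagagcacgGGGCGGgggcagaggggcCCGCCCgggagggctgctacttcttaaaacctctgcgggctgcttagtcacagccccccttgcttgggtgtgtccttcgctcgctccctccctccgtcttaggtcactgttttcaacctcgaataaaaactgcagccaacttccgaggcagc
CEMIP: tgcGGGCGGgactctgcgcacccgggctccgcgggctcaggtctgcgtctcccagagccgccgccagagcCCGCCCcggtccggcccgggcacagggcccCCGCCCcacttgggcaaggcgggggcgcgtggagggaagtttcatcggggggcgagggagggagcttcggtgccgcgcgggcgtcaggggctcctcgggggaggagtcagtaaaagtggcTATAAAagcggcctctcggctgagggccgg
CEMIP2: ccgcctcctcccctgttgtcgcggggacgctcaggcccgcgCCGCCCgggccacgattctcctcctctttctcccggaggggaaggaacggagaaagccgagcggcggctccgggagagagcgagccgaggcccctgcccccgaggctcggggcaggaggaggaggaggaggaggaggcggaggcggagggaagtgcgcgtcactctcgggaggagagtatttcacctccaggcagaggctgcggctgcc
GGGCGG was found 2 times in CD44, 3 times in CEMIP and 1 time in CEMIP2, and 42.6% of all promoters hold at least 1. TATAAA, the TATA box, was found in CEMIP only of these 3, at -30 to -25, and 10.7% of promoters hold it. None of the 3 windows held TGANTCA (the AP-1 motif, in 6.57% of promoters), CCAAT (32%), CATTCC (11.9%), TTTGAA (13.3%), CACGTG (the E-box, 6.34%) or the NF-kB motif (9.96%). GC content was 62.4% for CD44, 74.4% for CEMIP and 71.6% for CEMIP2, beside a median of 58.0% over all promoters.

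Over the 12 J82 libraries the log2 level of CD44 had a correlation of 0.945 with CEMIP and -0.794 with CEMIP2, and CEMIP and CEMIP2 had one of -0.736. In RT-112 the CD44 and CEMIP2 correlation was -0.377. The libraries fall into 4 groups of unequal CD44, so these values describe the groups as much as the libraries. The genes most like CD44 were FERMT1, an integrin adaptor (likeness 0.924), CDCA5, a sister chromatid cohesion factor (0.914), and HMGA2, a chromatin protein (0.913). Those most like CEMIP2 were UBE2H, a ubiquitin-conjugating enzyme (0.887), UGCG, which makes glucosylceramide (0.856), and MSX2, a homeobox factor (0.855).

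**Figure D3:**
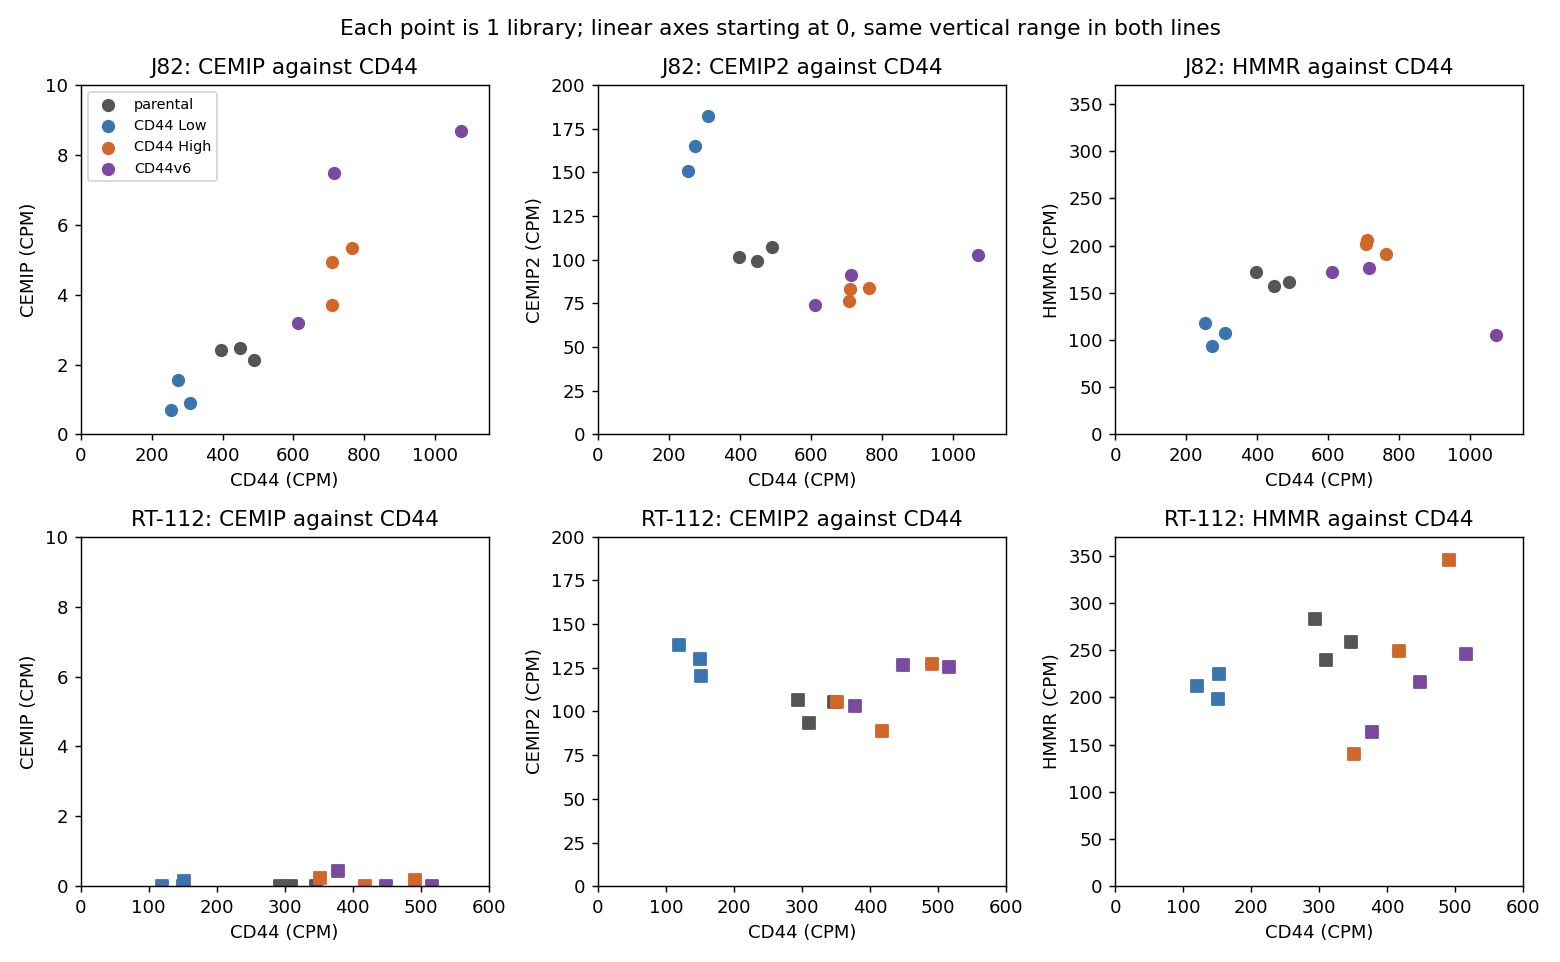
CEMIP, CEMIP2 and HMMR (CPM, vertical axes) against CD44 (CPM, horizontal axis) in each library of J82 (circles, top) and RT-112 (squares, bottom); grey, blue, orange and purple are parental, CD44 Low, CD44 High and CD44v6. In J82, CEMIP is higher and CEMIP2 lower in libraries with more CD44, and the J82 CD44v6 library at 1072 CPM of CD44 has HMMR at 105 CPM; in RT-112, CEMIP stays at or near 0.

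The hyaluronidases changed less. HYAL2, a membrane-anchored hyaluronidase, ran from 13.2 to 21.8 CPM in J82, where the group means were 16.7 in parental cells, 15.0 in CD44 Low, 19.8 in CD44 High and 16.3 in CD44v6. It ran from 9.76 to 13.1 CPM in RT-112. No HYAL2 difference was called within a line. The J82 High against Low value was 0.41 (unadjusted p = 0.024, adjusted p = 0.102), the RT-112 value -0.15 (adjusted p = 0.399), and the difference between them 0.59 (SE 0.20, adjusted p = 0.0632). HYAL2 shares 11.2% of its exonic bases with TUSC2 on the same strand, so reads may be split between them. The genes most like HYAL2 were MMAB (likeness 0.821), PCCB (0.783) and GPX1 (0.762), which are enzymes of cobalamin, propionate and peroxide metabolism.

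HYAL3, a hyaluronidase family member, ran from 1.75 to 7.2 CPM in J82 and from 2.85 to 6.07 CPM in RT-112. Both J82 extremes were CD44v6 libraries, replicates 1 and 2. No HYAL3 difference was called, and the intervals of High against Low were -0.61 to 0.87 in J82 and -0.28 to 0.70 in RT-112. HYAL3 shares 12.2% of its exonic bases with NAA80 and 2.12% with IFRD2 on the same strand. No gene followed HYAL3 closely, the most alike being OTUD4 at 0.553. HYAL1, the lysosomal hyaluronidase, had 0 to 9 counts per library and did not pass the filter.

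Synthase transcripts were scarce. HAS3 was at 3.63, 2.2 and 1.53 CPM in RT-112 parental cells, 1.5, 2.70 and 2.28 CPM in CD44 Low, 1.06, 2.64 and 2.18 CPM in CD44 High, and 3.08, 2.97 and 1.85 CPM in CD44v6, from 18 to 68 counts. The 4 RT-112 groups overlapped, and none of the 6 comparisons was called. In J82, HAS3 had 0 to 16 counts, was at 0 in 4 of 12 libraries and did not pass the filter there. The J82 CD44 Low libraries held 16, 11 and 4 counts and the parental libraries 0, 4 and 0. Over the 3 parental libraries of each line HAS3 had 145 counts in RT-112 and 4 in J82, a ratio of levels of 35.6 with a 95% counting interval of 13.6 to 132. HAS3 shares 6.90% of its exonic bases with CHTF8 on the opposite strand. HAS2 had 0 counts in all 24 libraries, and so did HAS1, the remaining synthase. A count of 0 allows up to 3 counts, which is 0.129 to 0.179 CPM depending on the library, so HAS2 was not detectable at this depth. TNFAIP6, which binds hyaluronan and moves heavy chains of inter-alpha-inhibitor onto it, had 2 and 4 counts in 2 J82 libraries and 0 in all RT-112 libraries.

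Counted over the genes, 6 passed the filter in each line: CD44, HMMR, HYAL2, HYAL3 and CEMIP2 in both, CEMIP in J82 and HAS3 in RT-112. HAS2, HYAL1 and TNFAIP6 passed in neither. The counts of calls include CD44, by which the derived lines are described, so its call is no independent result. In J82 CD44 High against CD44 Low, 4 were called: CD44, CEMIP and HMMR rose and CEMIP2 fell, where 15.7% of all genes tested were called. CD44v6 against CD44 Low gave 3 calls, CD44 and CEMIP up and CEMIP2 down, with 9.58% of all genes. CD44 Low against parental gave 3, CD44 and HMMR down and CEMIP2 up, with 5.34%. CD44 was the only call in CD44 High against parental (2.94% of all genes) and in CD44v6 against parental (2.6%). With only the groups compared these counts were 4 and 0. Leaving out any 1 library gave 0 for High, and for CD44v6 it gave 0 to 2. DESeq2, a mean of at least 50 counts and the replicate block each gave 2 for CD44v6.

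In RT-112, CD44 was the only one of the 6 called in CD44 Low against parental (3.2% of all genes), in CD44 High against CD44 Low (16%) and in CD44v6 against CD44 Low (16%). Leaving aside CD44, by which the lines are described, these comparisons had no call in the main fits. With only the groups compared, more than CD44 was called in CD44 Low against parental, as given at the end. In CD44 High against CD44 Low, CEMIP2 was called without High replicate 3 and HMMR without High replicate 2. By edgeR none was called in RT-112 CD44 High against parental (0.511% of all genes) or CD44v6 against parental (0.614%), where 1 had an unadjusted p under 0.05 each time, CD44, and DESeq2 called 0. CD44v6 against CD44 High gave 0 calls by edgeR in both lines, where 0% of all genes were called and DESeq2 called 0 of these genes. In J82, 1 gene had an unadjusted p under 0.05 there, HMMR at -0.40 (adjusted p = 0.502), and in RT-112 none did.

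By edgeR, 1 of the 7 genes tested, CEMIP2, was called for a difference between the lines in High against Low (10.7% of all genes), where DESeq2 and median-of-ratios scaling called 2, adding HYAL2, and in CD44v6 against Low (7.52%). By edgeR none of the 7 was called for CD44 Low against parental (1.06% of all genes), CD44 High against parental (0.241%), CD44v6 against parental (0.138%) or CD44v6 against CD44 High (0.00573%). At an unadjusted p under 0.05 there were 2, 1, 1 and 1, and DESeq2 called 0 in each. HMMR and CEMIP2 were thus called in J82 High against Low and not in RT-112, and the line difference itself passed the test for CEMIP2 and not for HMMR.

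**Figure D4:**
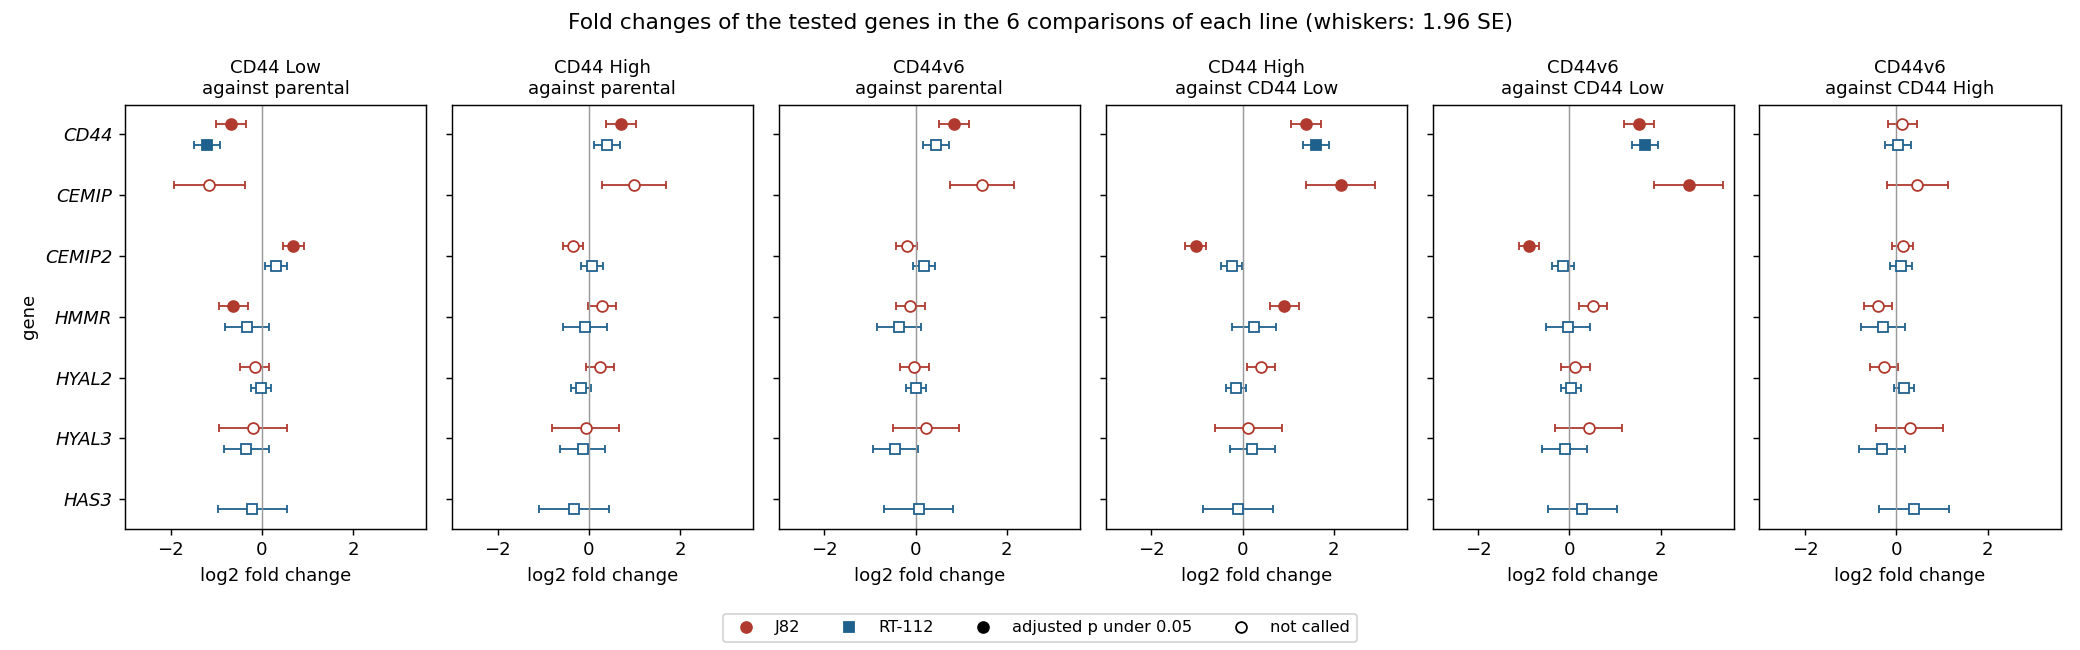
Log2 fold change with its 95% interval, from the SE, of each tested gene in the 6 comparisons within J82 (red circles) and RT-112 (blue squares), where filled symbols have an adjusted p under 0.05. CD44 is filled in both lines in CD44 Low against parental and in both comparisons with CD44 Low, and CEMIP2 and HMMR are filled in J82 alone. CEMIP is filled in J82 and was not tested in RT-112, so it has no symbol there.

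Parental J82 and RT-112 cells differed in 5 of the 7 genes, where 62% of all genes differed. J82 had more CD44 (0.49, SE 0.16, adjusted p = 0.0135), HYAL2 (0.46, SE 0.14, adjusted p = 0.00687) and CEMIP. RT-112 had more HMMR (-0.67 for J82 against RT-112, SE 0.22, adjusted p = 0.0118) and HAS3. The CD44 call was lost without J82 parental replicate 1 (adjusted p = 0.0625) or RT-112 parental replicate 3 (0.0557), and the HYAL2 call without J82 parental replicate 2 (0.0692). The line and any difference in its handling cannot be told apart here. Per kilobase of exon, the parental J82 order of levels was CD44 at 44.4 ± 4.64 (SD, n = 3), HMMR at 41.6 ± 1.91, CEMIP2 at 10.7 ± 0.442, HYAL2 at 3.67 ± 0.384, HYAL3 at 1.87 ± 0.161, CEMIP at 0.307 ± 0.0230 and HAS3 at 0.0138 CPM per kilobase, the last from 4 counts. HMMR, the neighbour of CD44 in that order, lay within 1 SD of CD44. In parental RT-112 the order was HMMR at 66.2 ± 5.44, CD44 at 31.7 ± 2.72, CEMIP2 at 10.6 ± 0.765, HYAL2 at 2.67 ± 0.111, HYAL3 at 2.48 ± 0.674 and HAS3 at 0.464 ± 0.202 CPM per kilobase, with CEMIP at 0. HYAL2 and HYAL3 there lay within 1 SD of HYAL3. Lengths are merged GENCODE 29 exons, which count every exon of a gene, so genes with many optional exons such as CD44 have their level per kilobase understated.

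Other genes of the pathway were read from lists. Of the 8 genes of synthesis and precursor supply, 7 were tested in each line. In CD44 High against CD44 Low, 2 of 7 rose in J82, where 15.7% of all genes were called: UAP1, which makes UDP-N-acetylglucosamine (0.49, adjusted p = 0.00954), and UGDH, which makes UDP-glucuronic acid (0.32, adjusted p = 0.0418). In RT-112, 2 of 7 fell, where 16% of all genes were called: GFPT1, the entry enzyme of the hexosamine pathway (-0.35, adjusted p = 0.0267), and UGP2, which makes UDP-glucose (-0.25, adjusted p = 0.04). The median log2 change of the 7 was 0.26 in J82 and -0.16 in RT-112, beside -0.02 and 0.02 for all genes. In CD44v6 against CD44 Low, GFPT1 (-0.38) and UGP2 (-0.38) fell in RT-112, again 2 of 7 beside 16% of all genes. GFPT1 was also higher in RT-112 CD44 Low than in parental cells (0.39, adjusted p = 0.0434).

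Of the 21 other hyaluronan receptors and binding proteins, 8 were tested in J82 and 6 in RT-112. PTX3, a pentraxin that joins the hyaluronan matrix through TNFAIP6, was at 19.6 ± 2.13 CPM (SD, n = 3) in J82 parental cells, 12.6 ± 2.84 in CD44 Low, 36.2 ± 9.48 in CD44 High and 37.4 ± 2.78 in CD44v6. SUSD5, which carries a hyaluronan-binding link domain, was at 18.4 ± 1.51, 16 ± 0.824, 27.3 ± 1.44 and 26.7 ± 0.156 CPM in the same groups. Both rose in J82 High against parental (PTX3 0.89, SUSD5 0.58), CD44v6 against parental (0.93 and 0.54), High against Low (1.53 and 0.78) and CD44v6 against Low (1.58 and 0.74), and they were the 2 of 8 called in each of these comparisons, where 2.94%, 2.6%, 15.7% and 9.58% of all genes were called. None of the 6 tested in RT-112 was called in any comparison, where PTX3 averaged 0.227 to 0.908 CPM and SUSD5 1.84 to 2.38 CPM. The line difference in High against Low was 1.15 for PTX3 (SE 0.66, adjusted p = 0.30) and 0.44 for SUSD5 (SE 0.25, adjusted p = 0.30), so a difference between the lines was not shown. Of the 6 inter-alpha-inhibitor genes, whose chains TNFAIP6 transfers, 1 was tested in each line and none was called.

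Of 10 genes that shed CD44 or encode its other ligand, 7 were tested in J82 and 10 in RT-112. For RT-112, 1 of 10 was called between High and Low and 2 of 10 between CD44v6 and Low. Each time 16% of all genes were called. For J82, 1 of 7 was called between CD44v6 and Low, beside 9.58% of all genes. No other comparison within a line gave a call for this list. Whether the list was called more often than other genes was not tested. ADAM10, a sheddase of CD44, was at 243 ± 14.7 CPM (SD, n = 3) in RT-112 parental cells, 316 ± 8.50 in CD44 Low, 193 ± 61.0 in CD44 High and 162 ± 25.2 in CD44v6, and fell by 0.67 in High and by 0.97 in CD44v6 against Low (adjusted p = 0.0278 and 0.00546). In J82 it ran from 106 to 127 CPM over the group means with no call. MMP9, a secreted protease that docks on CD44, was called higher in RT-112 CD44v6 than in CD44 Low, where all 3 Low libraries were at 0 and the CD44v6 libraries averaged 0.793 CPM. It averaged -1.50 log2 CPM over all 24 libraries, so this call rests on near-zero counts and is no measure of size. PSENEN, a gamma-secretase subunit, fell by 0.59 in J82 CD44v6 against CD44 Low.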

How the data were processed

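Total RNA of 24 libraries was sequenced commercially. The file deposited by the authors holds whole-number counts per gene symbol with no normalization. The submitters' processing notes name HISAT2, StringTie and the build GRCh37, with no versions. The annotation and whether counting used strand are not given in the sources used here.

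Columns were matched to samples by title (0 left unmatched). In R 4.3.3 with edgeR 4.0.16, genes were filtered with filterByExpr and scaled with TMM, and glmQLFit and glmQLFTest were run with group as the term. Each line was fitted on its 12 libraries (15951 genes in J82, 15645 in RT-112), giving 6 comparisons each. The parental lines and the 6 differences between lines were tested on all 24 libraries (17438 genes), so 19 comparisons were made. Tests are two-sided, with Benjamini-Hochberg adjustment over all genes tested. Replicates are biological per the series design, and the labels do not say whether they are separate cultures. CPM levels use TMM factors over all 24 libraries. Counting intervals and limits cover counting error only. Likeness used log2(CPM + 0.5) for genes averaging 1 or more log2 CPM in both lines, naming the 3 most alike.

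The 10 genes and all gene lists were chosen with earlier results of these data known. All 10 are named. Of each list, genes called in both lines with one sign are named, and up to 4 with the largest change among those called in CD44 High against CD44 Low. The result of a list gene that met the rule is not reported here. GNPNAT1, LAYN, BRCA1, PSENEN and MMP9 were named after their values were seen, as was PLK1 in the line difference. The calls of EPCAM and KRT8, the KRT7 line difference and the marker calls against parental cells were added in the same way. Symbols were matched to RefSeq promoters of GRCh38.p14 (9 of 10 genes), and GENCODE 29 gave exon lengths and overlaps, which may not match the annotation used for counting.

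The groups carry the same replicate numbers, and no label explains them. Deviations of same-numbered libraries correlated above 0.1 in all pairs in J82 CD44 High against CD44 Low alone (0.196 to 0.298), where the pairing comes from the data. No pair of replicates agreed within sampling noise (lowest chi-square per degree of freedom 6.42). The highest value was 63.7, between J82 CD44v6 replicates 2 and 3. RT-112 CD44 High replicates 2 and 3 came next, at 49.3. Alternatives were median-of-ratios and upper-quartile scaling, no filter, a mean of at least 50 counts, DESeq2 1.42.0, only the groups compared, all 24 libraries, a replicate block and leaving out each library. On simulated counts for CD44 High against CD44 Low, the fit called 52% of log2 changes of 1 and 83.8% of 2 in J82 (15663 genes), and 70.7% and 92% in RT-112 (15392 genes). The changed genes were drawn at random from all tested genes, whatever their level. These percentages average over levels and do not give the detection rate of a single gene. Figures used Python 3.11.15 and matplotlib 3.10.9.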

Additional observations from a re-analysis of the deposited data

Results flagged for a closer look

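The effect of the derived lines differed between J82 and RT-112 for the genes below, each by the test of the difference itself (edgeR, J82 minus RT-112, log2 scale, 3 libraries per group). CEMIP2 was lower in J82 CD44 High than in CD44 Low to an extent not seen in RT-112, with a difference of -0.763 (SE 0.18, adjusted p = 0.00721). For CD44v6 against CD44 Low it was -0.764 (SE 0.18, adjusted p = 0.00987).

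Of the 7 tested genes of hyaluronan synthesis and precursor supply, 4 differed in CD44 High against CD44 Low, where 10.7% of all genes did. UGDH differed by 0.513 for CD44 High against CD44 Low (adjusted p = 0.00615), by 0.465 for CD44v6 against CD44 Low (adjusted p = 0.0164) and by -0.523 for CD44 Low against parental (adjusted p = 0.0265). Its group means were 24 CPM in parental J82, 20.4 in CD44 Low, 25.4 in CD44 High and 24.8 in CD44v6, beside 53.9, 65.7, 57.3 and 57.9 CPM in RT-112. GFPT1 differed by 0.513 (adjusted p = 0.0147) and 0.595 (adjusted p = 0.00742) in the comparisons of CD44 High and CD44v6 with CD44 Low. UGP2 differed by 0.519 (adjusted p = 0.029) and GNPNAT1, which acetylates glucosamine phosphate, by 0.508 (adjusted p = 0.0431), both in CD44 High against CD44 Low. For all 4 genes the fitted change from CD44 Low to CD44 High was positive in J82 and negative in RT-112.

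Of the 10 tested genes that shed CD44 or encode its other ligand, ADAM10 differed. Its difference was 0.756 for CD44 High against CD44 Low (adjusted p = 0.025), where 10.7% of all genes differed. For CD44v6 against CD44 Low it was 1.20 (adjusted p = 0.00113), where 7.52% of all genes differed. LAYN, a hyaluronan receptor, belongs to a list with 9 genes tested on all 24 libraries. It was at 26.6 to 31.0 CPM over the J82 group means and at 0 to 0.16 CPM in RT-112. Its fitted differences of 4.75 (adjusted p = 0.0408) and 4.74 (adjusted p = 0.0474) in CD44 High and CD44v6 against CD44 Low rest on those near-zero RT-112 counts and are no measure of size. The 12 mitotic genes were all tested, and 7.52% of all genes differed in CD44v6 against CD44 Low. There AURKA differed by -0.854 (adjusted p = 0.0244) and PLK1 by -0.872 (adjusted p = 0.00945). TPX2 differed by -0.647 (adjusted p = 0.000655) and BRCA1 by 0.786 (adjusted p = 0.0334).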

How the results depend on the processing

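Across the other settings tried, 135 counts of genes called stayed within 1.5 times the reported count and 10 did not, leave-one-out fits aside, and no gene changed direction past the threshold. Of the single gene results, 881 kept their side of the threshold, 15 gained a call and 3 lost one, and with 1 library left out 947 kept it, 8 gained a call and 23 lost one. For the line difference in CD44 High against CD44 Low the count was 2 in place of 1 with DESeq2 and with median-of-ratios scaling, HYAL2 being added (adjusted p = 0.0295 and 0.0495). With a mean of at least 50 counts the parental lines gave 3 in place of 5. HAS3 had 62 counts over the J82 libraries and 550 over the RT-112 libraries, and CEMIP had 849 and 19. Both fell below that filter over all 24 libraries, so they were not tested there. With only the groups compared, the counts were 4 in place of 1 for J82 CD44 High against parental, 0 in place of 1 for J82 CD44v6 against parental, 3 in place of 1 for RT-112 CD44 Low against parental and 1 in place of 0 for RT-112 CD44v6 against parental. J82 CD44v6 against parental gave 2 in place of 1 with DESeq2, with a mean of at least 50 counts and with the replicate block. The cause of the other changes in count was not tested.

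When 1 library was left out, the counts ranged from 1 to 2 for the line difference in CD44 High against CD44 Low and for RT-112 CD44 High against CD44 Low, from 0 to 0 for J82 CD44 High against parental, from 1 to 2 for J82 CD44 Low against parental and from 0 to 2 for J82 CD44v6 against parental. The replicate block left the 4 calls of J82 CD44 High against CD44 Low, the comparison paired by the data, as they were. Elsewhere the libraries share only a number. There the block added CEMIP in CD44 Low (-1.22, adjusted p = 0.0466) and CD44v6 (1.37, adjusted p = 0.0313) against parental and HMMR in CD44v6 against CD44 Low (0.50, adjusted p = 0.0475), all in J82, and changed no other call of the 10 genes. Low counts left HAS2, HYAL1 and TNFAIP6 untested in both lines, CEMIP in RT-112 and HAS3 in J82.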
